A study of Rattus norvegicus with 8 samples.

Results

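Wnt proteins are secreted signals that bind Frizzled receptors and the co-receptor Lrp6 on neighbouring cells. Binding stops the destruction of beta-catenin, the product of Ctnnb1, which then enters the nucleus and switches on genes together with TCF/LEF factors such as Tcf7l2. Secreted Frizzled-related proteins (SFRPs) bind Wnt proteins outside the cell and restrain the signal, and Axin2 is a target gene that feeds back on it. In the ovary Wnt4 is needed for female gonad development, and beta-catenin takes part in the gonadotropin-driven expression of aromatase in granulosa cells.

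The 10 genes described here are the ligands Wnt4 and Wnt5a, the receptors Fzd1 and Fzd4, the co-receptor Lrp6, the inhibitors Sfrp1 and Sfrp4, the signal carrier Ctnnb1, the nuclear factor Tcf7l2 and the feedback inhibitor Axin2. Their probe sets were those that the platform annotation assigns to exactly 1 of these genes, and they made up 21 of the 31099 probe sets and 10 of the 14217 named genes. Of the 10 genes, 5 had 1 probe set and 5 had several.

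The RNA came from granulosa cells of rat ovarian follicles, the somatic cells around the oocyte, with 1 Affymetrix array for each of 8 samples. According to the series' design text, all animals were immature rats given eCG, a gonadotropin that makes follicles grow. After 24 h they received either anti-eCG antibody, which sends follicles into atresia (degeneration), or pre-immune serum. Oocytes of the serum group reached term in 30 to 50% of cases and those of the antibody group in 0%. The strain, the age in days and any pooling of animals are not given in the sources used here, and the labels tell the arrays apart by a number alone. No array could therefore be assigned to antibody or serum, and those groups were not compared. Values are given array by array. Arrays 2074 and 2076 are also set against the other 6, a split by label number alone. Whether this split follows treatment or batch is not known.

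Signals are arbitrary fluorescence units after scaling, and a series of values follows the label numbers upward, first 2074 and 2076 and then 2194 to 2199. Below a floor, the 40th percentile of the array, a signal was read only as low. A gene was taken as measured when its brightest probe set exceeded the median of the array on at least 2 arrays. Spread over arrays is given as the inner range, the second highest over the second lowest array after low values were raised to the floor. It is written "at least" where raised values set the lower end. Leaving out arrays narrows the inner range or leaves it alike by construction, apart from small shifts in scaling and floor. A gene high or low on only 2 arrays thus loses width without either. Floors lay between 273 and 471 and were highest on array 2195, so a probe set below the floor on every array would still show an inner range of 1.30-fold. Over 10498 measured genes the mean absolute log2 distance from the gene's own median was largest on arrays 2195 (0.44), 2074 (0.43) and 2076 (0.41) and ran from 0.28 to 0.34 in the 5 that remain.

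Among the 10 genes, 9 were measured and Wnt5a was not. The 4 genes Wnt4, Sfrp4, Axin2 and Fzd1 spread over at least 2-fold by the inner range, and 5 were not counted as such. For Fzd4, below the floor on 6 arrays, the range is a lower bound, so whether it reached 2-fold was not settled. Over all measured genes 29.7% reached that size, so the count of 4 of 9 is a description and does not set these genes apart. The median inner range of the 9 genes was 1.89-fold and that of all measured genes 1.71-fold. Only 4 of the 10 genes, Fzd1, Lrp6, Ctnnb1 and Tcf7l2, had their brightest probe set above the floor on all 8 arrays. The order over arrays is best read in these 4 and in Wnt4.

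**Figure D1:**
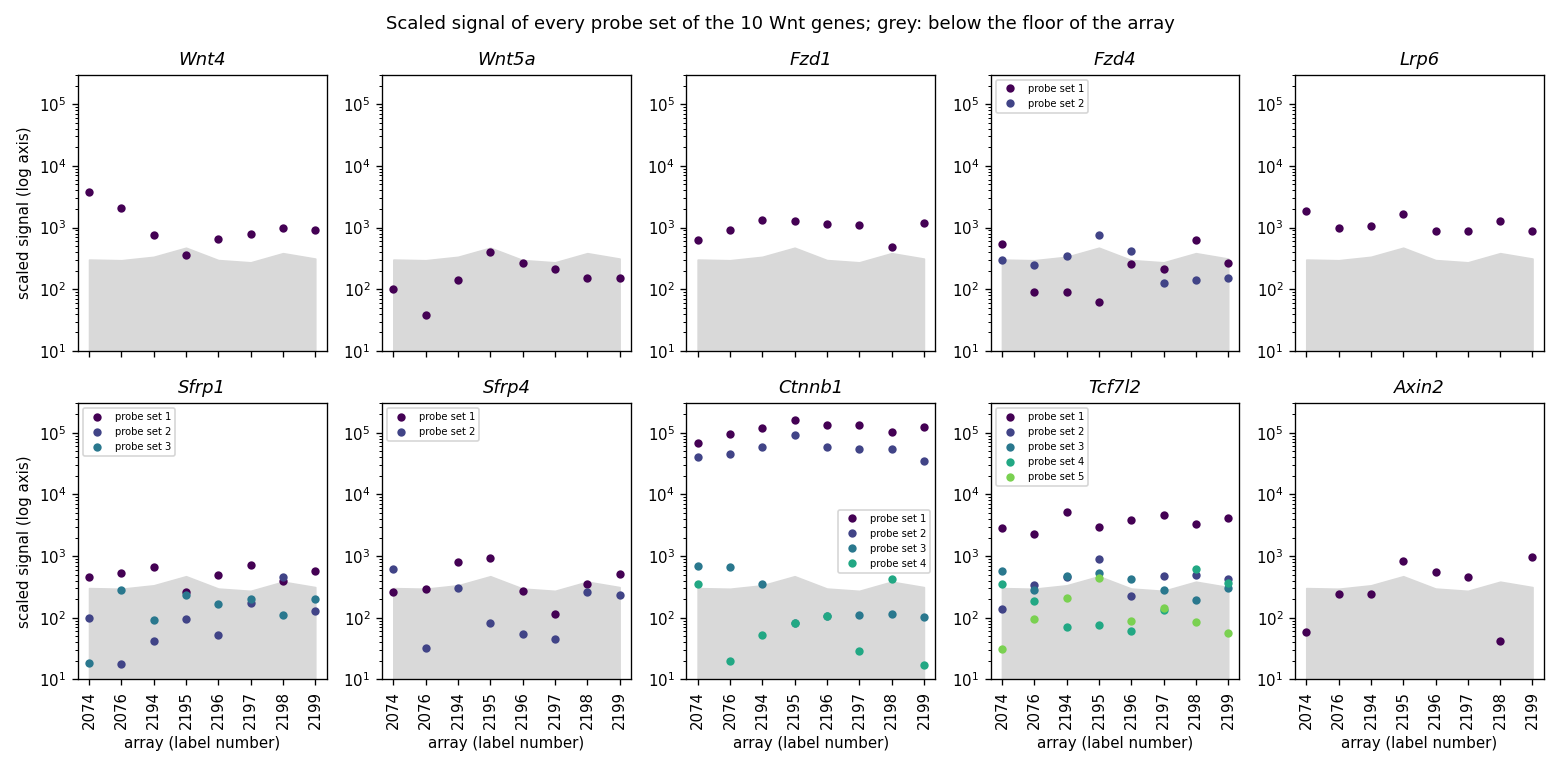
Scaled signal (log axis) of every probe set of the 10 Wnt genes on each of the 8 arrays, with probe sets numbered by brightness and the region below the floor of each array in grey. Wnt4 stands highest on arrays 2074 and 2076, the 2 brightest Ctnnb1 probe sets lie far above the floor throughout, and Wnt5a lies below it on all 8 arrays.

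The promoter of Axin2 is shown because it is a textbook target of beta-catenin and TCF factors, and that of Wnt4 because, over all 8 arrays and at the floor used, its inner range was the largest of the 9 measured genes. That rank was lost over arrays 2194 to 2199 alone, where Wnt4 had 1.40-fold and Sfrp4 at least 2.74-fold. It was also lost with a floor at the 25th percentile, where Axin2 had at least 4.58-fold. The RefSeq promoter table of the GRCr8 build held 7 of the 10 genes, each as 250 bases before to 50 bases after the start site. The sequences run 5′ to 3′ on the + strand, at chr10:94398535-94398834 for Axin2 and chr5:154797200-154797499 for Wnt4, and capitals mark motif matches.
Axin2: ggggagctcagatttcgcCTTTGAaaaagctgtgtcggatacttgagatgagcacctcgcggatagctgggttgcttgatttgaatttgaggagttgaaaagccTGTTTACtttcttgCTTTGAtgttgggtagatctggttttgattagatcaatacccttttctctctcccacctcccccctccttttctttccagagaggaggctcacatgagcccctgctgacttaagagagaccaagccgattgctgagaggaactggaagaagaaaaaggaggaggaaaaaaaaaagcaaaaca
Wnt4: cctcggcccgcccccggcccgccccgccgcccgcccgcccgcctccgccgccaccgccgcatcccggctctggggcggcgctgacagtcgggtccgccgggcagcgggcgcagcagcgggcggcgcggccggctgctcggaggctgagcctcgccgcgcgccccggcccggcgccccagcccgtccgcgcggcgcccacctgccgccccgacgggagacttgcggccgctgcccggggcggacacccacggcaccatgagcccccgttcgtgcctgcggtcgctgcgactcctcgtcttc
The TCF/LEF letters searched, on both strands, were CTTTGA. Axin2 held a match at position -232 and another at -132 from the start site, and none of the other 6 promoters held one. Of 33469 promoter windows of this length, 16.1% held at least 1 match. The FOXO letters GTAAACA matched Axin2 once, on the reverse strand, and 3.78% of windows held at least 1 match on either strand. The letters AAGGTCA, read by steroidogenic factor 1, matched none of the 7 (4.61% of windows). A match is a run of letters and not a measured binding site.

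Wnt4, the ligand that directs ovarian rather than testicular development, gave scaled signals of 3834, 2113, 773, 363, 655, 783, 983 and 914. Both arrays numbered 2074 and 2076 lay above the other 6, which ran from 363, below the floor on array 2195, to 983. The inner range was 3.22-fold, larger than in 96.2% of measured genes and in 93.3% of the 1000 measured genes closest to it in signal. This width rested on that pair of arrays. It was 1.49-fold without array 2074, 1.4997-fold without array 2076 and 1.40-fold over arrays 2194 to 2199 alone.

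Other genes stood high on the same pair of arrays. Arrays 2074 and 2076 both lay above the other 6 in 13.7% of measured genes and both below them in 12.8%, or 26.5% in all. For these counts low values were raised to the floor, and the higher side had to reach the floor on all of its arrays. Of the 9 measured Wnt genes, Wnt4 lay above and Ctnnb1 and Tcf7l2 below, which is 3 of 9. Among 9 measured granulosa markers, 2 lay above on that pair. Foxl2, a transcription factor that maintains granulosa identity, gave 10427 and 8109 there and 3572 to 6919.8 elsewhere. Inha, the inhibin alpha subunit, gave 90489 and 70008 there and 26704 to 54107 elsewhere. None of the 9 lay below on both arrays, but array 2076 was the lowest of Cyp19a1 and Inhba. Cyp19a1, the aromatase gene, gave 6419 and 988 on the pair and 3582 to 20565 elsewhere. Inhba, an inhibin and activin subunit gene, gave 54502 and 19208 on the pair and 23347 to 72083 elsewhere. The summed signal of the 9 granulosa markers was 344368 and 270916 on the pair and 267293 to 328569 elsewhere.

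Among 29 measured markers of other cells 3, or 10.3%, lay beyond the other 6 arrays on that pair, beside 26.5% of all measured genes. Several of these markers were below the floor on many arrays, which makes such a call harder. What part this has in the lower share was not tested. The beta-globin gene Hbb, a red cell marker, gave 45683 and 12591 and elsewhere 3706 to 9666, and the 3 erythroid markers summed to 48902 and 13561 against 4277 to 10815. Hbb was the only 1 of the 3 that lay above on both arrays. In the stromal list 1 of 6 measured genes did so, Col1a2, a collagen chain, with 1935 and 1193 against 191 to 791. The sum over all 8 genes of that list was 7527 and 5242 against 3542 to 7099. The macrophage receptor gene Csf1r, 1 of 6 measured in its list, lay below, with 179 and 526 against 871 to 1892. None of the measured theca (5), endothelial (4), surface epithelial (2) or oocyte (3) markers lay beyond the other 6 arrays on both. The theca markers summed to 236740 and 273579 on the pair and 237437 to 478510 elsewhere. Most of that sum was Hsd3b1, with 185512 and 198330 on the pair, so it is no measure of theca cells. Of the theca markers, Star, Lhcgr and Hsd3b1, which granulosa cells can also express, were above the floor on all 8 arrays. Insl3, a theca hormone, was above it on 5, highest at 1009 on array 2195. Cyp17a1, the defining theca enzyme, was below it on 5 and above it on arrays 2074 (658), 2198 (1159) and 2199 (374). What part these cells have in the Wnt4 values was not tested. In RNA of mixed cells, fewer cells of a type and less RNA per cell cannot be told apart.

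Wnt5a, a ligand that often acts without beta-catenin, ran from 38.9 on array 2076 to 396 on array 2195. All 8 values were below the floor of their array, so neither its level nor its order over arrays could be read. The signal was not detectable on these arrays, which does not show that the transcript was absent.

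The receptor gene Fzd1 gave 619.8, 926, 1307, 1268, 1153, 1111, 491 and 1194. Array 2198 was lowest and array 2074 next, while 5 arrays lay close together between 1111 and 1307. The inner range of 2.05-fold rested on those 2 low arrays, since it was 1.36-fold without either. It also fell just under 2-fold without scaling (1.90-fold), with quantile normalization (1.83-fold), and without array 2194 (1.93-fold) or 2195 (1.94-fold). Over arrays 2194 to 2199 alone it was 1.12-fold.

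Fzd4, a receptor for Wnt proteins and for norrin, had its brighter probe set above the floor only on array 2074, at 535, and on array 2198, at 622. The other 6 signals ran from 61.4 to 266, and the inner range was at least 1.81-fold. Without either high array, or with a lower floor or none, the gene no longer counted as measured. Its second probe set lay above the floor on arrays 2194 (341), 2195 (747) and 2196 (410.2) and below it on 2074 and 2198. The 2 probe sets thus marked different arrays as high, and the order of Fzd4 over arrays was not settled.

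Lrp6, the co-receptor that starts the beta-catenin branch, gave 1864, 999.5, 1077, 1642, 869, 871, 1295 and 871. All 8 values were above the floor, with arrays 2074 and 2195 high and the rest between 869 and 1295. The inner range was 1.89-fold, larger than in 63.1% of measured genes and in 62.6% of the 1000 closest in signal. Without array 2074 or 2195 it was 1.48-fold.

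The secreted inhibitor gene Sfrp1 gave 460.4, 534, 658, 262, 490.0, 725, 402 and 583 in its brightest probe set. The values lay close above the floor, and only array 2195 lay below it. The inner range of at least 1.43-fold was larger than in 20.9% of measured genes and in 4.8% of the 1000 closest in signal. Its other 2 probe sets were below the floor on 7 and on 8 arrays and say nothing on the order.

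Sfrp4, an SFRP studied in the rodent ovary and corpus luteum, gave 259, 288, 809, 947, 273, 116, 353 and 504. Arrays 2194, 2195 and 2199 lay above the floor and the other 5 below it. The inner range was at least 2.74-fold, larger than in 92.4% of measured genes and in 89.7% of the 1000 closest in signal. It was at least 1.71-fold without array 2194 or without array 2195. Unlike that of Wnt4, it did not rest on arrays 2074 and 2076, being at least 2.74-fold over arrays 2194 to 2199. The second probe set of Sfrp4 was above the floor only on array 2074, at 629, where the first was below it. High and low arrays of Sfrp4 therefore depended on the probe set.

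**Figure D2:**
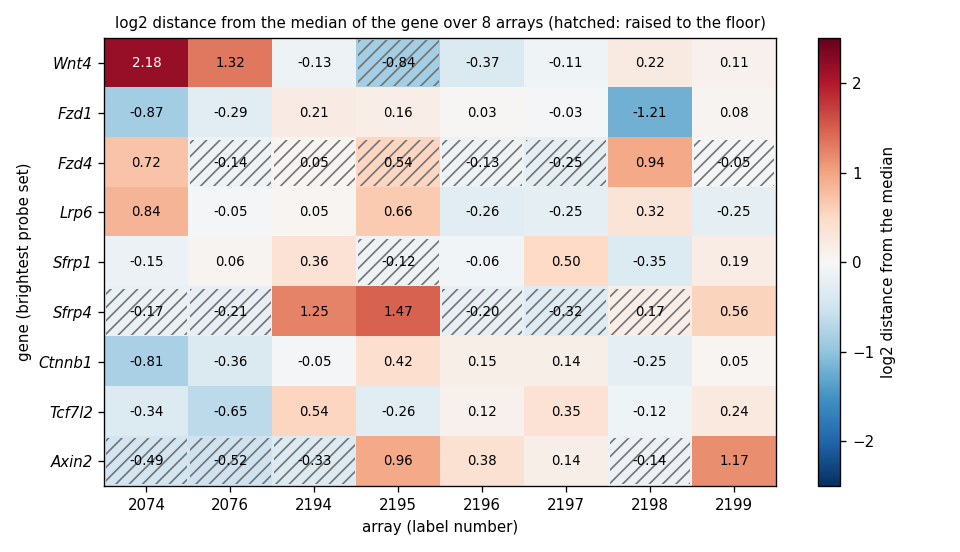
Log2 distance of each array from the gene's own median over the 8 arrays, for the brightest probe set of the 9 measured Wnt genes. Hatched cells were raised to the floor. Wnt4 is 2.18 and 1.32 above its median on arrays 2074 and 2076, where Ctnnb1 is 0.81 and 0.36 below and Tcf7l2 0.34 and 0.65 below.

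Ctnnb1 encodes beta-catenin, which links cadherins to the cytoskeleton and carries the Wnt signal. Its brightest probe set gave 69229, 94429, 117376, 162178, 135014, 134109, 102452 and 125624. Arrays 2074 and 2076 lay below the other 6 and array 2195 was highest. The inner range was 1.43-fold, with 21.0% of measured genes and 37.7% of the 1000 closest in signal narrower. The full range from array 2074 to array 2195 was 2.34-fold.

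The second Ctnnb1 probe set gave 40328, 45437, 58973, 91540.3, 59138, 55214, 55092 and 34679. It shared the peak on array 2195 and low values on arrays 2074 and 2076, but its lowest array was 2199. After each was centred on its median, the 2 probe sets differed by a mean of 0.26 on the log2 scale per array. The same difference was 0.47 at the median of 2658 genes with at least 2 measured probe sets. The third Ctnnb1 probe set ran the other way, with 687, 676 and 358 on its first 3 arrays and 81.7 to 114, below the floor, on the rest. Its signals were near the floor, and its mean difference from the brightest was 0.58. The dimmest, with at most 429, was above the floor on arrays 2074 and 2198 only.

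Tcf7l2, a TCF factor that binds DNA and recruits beta-catenin, had 5 probe sets. The brightest gave 2832, 2275, 5193, 2982, 3874, 4566, 3296 and 4219. Arrays 2074 and 2076 lay below the other 6, though array 2195, at 2982, was close to them. Without scaling Tcf7l2 no longer lay below on both, while Wnt4 and Ctnnb1 kept their side without scaling and with quantile normalization. The inner range was 1.61-fold, larger than in 40.4% of measured genes and in 58.2% of the 1000 closest in signal.

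Of the 4 dimmer Tcf7l2 probe sets, the next brightest ordered the arrays otherwise. The second was highest on array 2195, at 890.5, and lowest on array 2074, at 139.6, below the floor. The third was highest on array 2074, at 575. The mean log2 differences from the brightest were 0.47 and 0.44 per array, close to the 0.47 at the median of all genes. The remaining 2 probe sets were below the floor on 5 and on 8 arrays, and the order of the dimmest could not be read.

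Axin2, which builds the complex that destroys beta-catenin and whose transcription follows the pathway, gave 59.2, 246, 241, 822, 551, 467, 42.5 and 952. Arrays 2195, 2196, 2197 and 2199 lay above the floor and the other 4 below it, arrays 2074 and 2076 among the low ones. The inner range was at least 2.72-fold, larger than in 92.1% of measured genes and in 94.0% of the 1000 closest in signal. It was at least 1.84-fold without array 2195, at least 1.82-fold without array 2199 and at least 1.85-fold with quantile normalization. These bounds do not show whether the range fell under 2-fold. Over arrays 2194 to 2199 it was at least 2.12-fold. Array 2195, whose signal of 822 set the upper end, had the highest floor (471) and the highest array median (687). What part this has in the width of Axin2 was not tested.

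**Figure D3:**
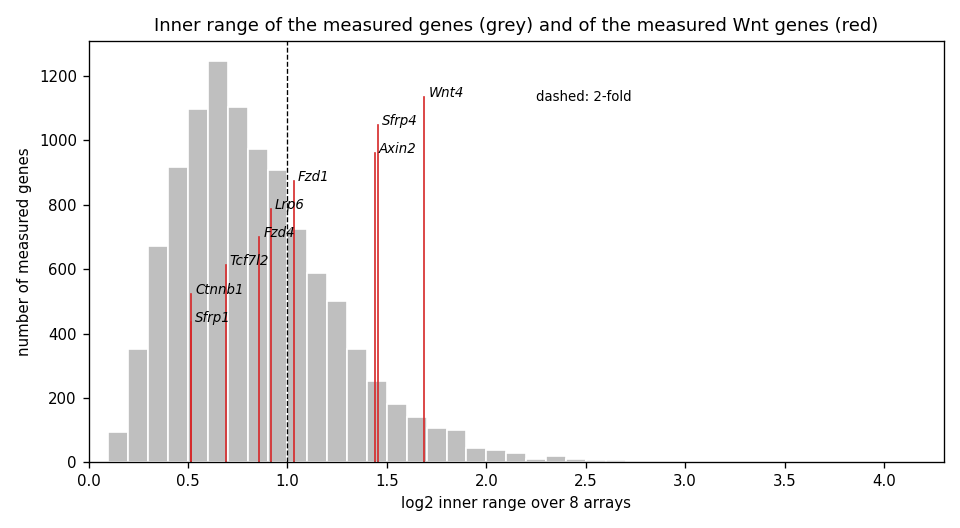
Number of measured genes by log2 inner range over the 8 arrays (grey bars, 10498 genes), with the 9 measured Wnt genes as red lines. Wnt4, Sfrp4, Axin2 and Fzd1 lie to the right of the dashed line at 2-fold, and those of Sfrp1, Sfrp4, Fzd4 and Axin2 are lower bounds.

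For each of the 4 wider genes, the measured genes with the most similar pattern were taken as those with the smallest mean absolute log2 difference per array over the 8 arrays, after centring. For Wnt4 these were Scamp3 (0.18), C19h1orf198 (0.18) and Xab2 (0.21), against a median of 0.79 over 10497 genes. Scamp3, a membrane trafficking gene, stood at 5659 (array 2074) and 4496 (array 2076) and elsewhere at 1419 to 1946. For Fzd1 they were Mtmr11 (0.15), Rbm22 (0.17) and LOC100911177 (0.18), with a median of 0.53. Mtmr11, a myotubularin-related gene, was lowest on arrays 2074 (1033), 2076 (1224) and 2198 (1228), so its low arrays held both of those of Fzd1 but in another order. Rbm22, a splicing factor gene, was lowest on array 2198, at 675, and next lowest on array 2074, at 1153, as was Fzd1. For Sfrp4 they were Fam241b (0.07), Kirrel3 (0.07) and Slc39a2 (0.12), with a median of 0.63, but both genes of each pair were above the floor on only 3 arrays. For Axin2 they were Mmp19 (0.14), Ccdc74a (0.16) and Pdxkl1 (0.16), with a median of 0.59 and 4 such arrays. Of the arrays that remain, both genes were below the floor on 4 for each Sfrp4 pair and on 3 or 4 for the Axin2 pairs, so these small differences rest on few measured values. The nearest were picked out of all measured genes, so some will be close in any data.

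Beyond the 10 genes, a list of 124 other Wnt pathway genes held 101 with a probe set of their own and 74 that were measured. The inner range reached 2-fold in 27 of the 74, or 36.5%, beside 29.7% of all measured genes. Lower bounds short of 2-fold were counted as not reaching it. Their median inner range was 1.80-fold. Arrays 2074 and 2076 lay beyond the other 6 in 18 of the 74, or 24.3%, above in 11 and below in 7, beside 26.5% of all measured genes.

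Of 8 measured ligand and secretion genes 4 reached 2-fold. Wnt6 had at least 2.59-fold, with 1053 on array 2195 and 69.9 on array 2199, and was below the floor on 3 arrays. Wnt1 had 2.13-fold, from 529 on array 2197 to 1736 on array 2198. Wnt1 dropped just under 2-fold without array 2074 (1.95-fold) or 2197 (1.96-fold). Wnt6 had at least 1.97-fold without array 2074 and at least 1.98-fold without array 2195. These bounds do not show whether Wnt6 stayed above 2-fold. Wls, which carries Wnt proteins to the cell surface for release, was the steadiest at 1.25-fold, with 1586 to 2564 on 7 arrays and 3385 on array 2199.

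Of 12 measured receptor genes 6 reached 2-fold. Ptk7, a Wnt co-receptor of planar cell polarity, was low on arrays 2074 (2649) and 2076 (4118) and ran from 9194 to 17997 elsewhere. Its inner range of 3.10-fold was 1.39-fold without either of that pair. Celsr2, a polarity cadherin, had 2.64-fold. Ryk, a Wnt-binding receptor with an inactive kinase domain, had the smallest range of the group by brightest probe set, 1.58-fold, and was highest on arrays 2074 (4101) and 2076 (2994). Its next probe set had at least 2.78-fold, so whether Ryk was steady depended on the probe set.

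Inhibitors outside the cell or at the membrane reached 2-fold in 4 of 6 measured genes. Dkk3, of the Dickkopf family, had at least 2.67-fold and Sostdc1, which binds BMP proteins and Lrp6, had 2.36-fold. Sostdc1 ran from 2396 on array 2076 to 11195 on array 2194, and its inner range was 1.86-fold without array 2076 or 2196. Apcdd1, a membrane inhibitor, had 1.68-fold and was lowest on arrays 2074 (313) and 2076 (349), both close above the floor.

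The dishevelled and destruction complex group reached 2-fold in 5 of 17 genes, and the catenin partners and nuclear factors in 5 of 20. Ppp2r1a, a scaffold subunit of protein phosphatase 2A, had 3.82-fold, with 7805 and 6239 on arrays 2074 and 2076 and 1503 to 3624 elsewhere. Its next probe set had 1.53-fold, and the range was 2.20-fold without array 2074 or 2076 and 2.35 to 2.37-fold without 2195 or 2197. Dvl3, which relays the signal from Frizzled, had at least 3.03-fold but exceeded the floor only on arrays 2198 (896) and 2199 (1098), and without either it no longer counted as measured. Apc, the scaffold of the destruction complex, had 1.13-fold, and 1.37-fold with the mean of probe sets. Its full range, from 3391 on array 2074 to 6260 on array 2194, was 1.85-fold. Tcf7l1, a mostly repressive TCF factor, had 3.12-fold, high on arrays 2194 (1429) and 2195 (1601) and between 453 and 798 elsewhere. Without array 2194 it was 1.75-fold and without 2195 it was 1.78-fold. Cby1, an antagonist of beta-catenin, had 2.59-fold and was 1.90-fold without array 2074 or 2076. Its next probe set had at least 1.69-fold. Chd8, a chromatin remodeller that binds beta-catenin, had 1.14-fold.

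Genes widely used as targets reached 2-fold in 3 of 11. Fosl1, an AP-1 subunit, had 2.96-fold, from 678 on array 2199 to 2725 on array 2076. Cd44, the hyaluronan receptor, had at least 2.30-fold and was below the floor on 5 arrays. Without array 2076 or 2194 it no longer counted as measured. Nr5a2, a nuclear receptor of granulosa cells, had 1.24-fold, from 29576 on array 2194 to 48599 on array 2199. The target list thus held both wide and steady genes. Array 2195 was the next highest of both Fosl1 (2438) and Axin2 (822), while the Fosl1 peak, array 2076, was a low array of Axin2, and the Axin2 peak, array 2199, was the lowest of Fosl1.

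**Figure D4:**
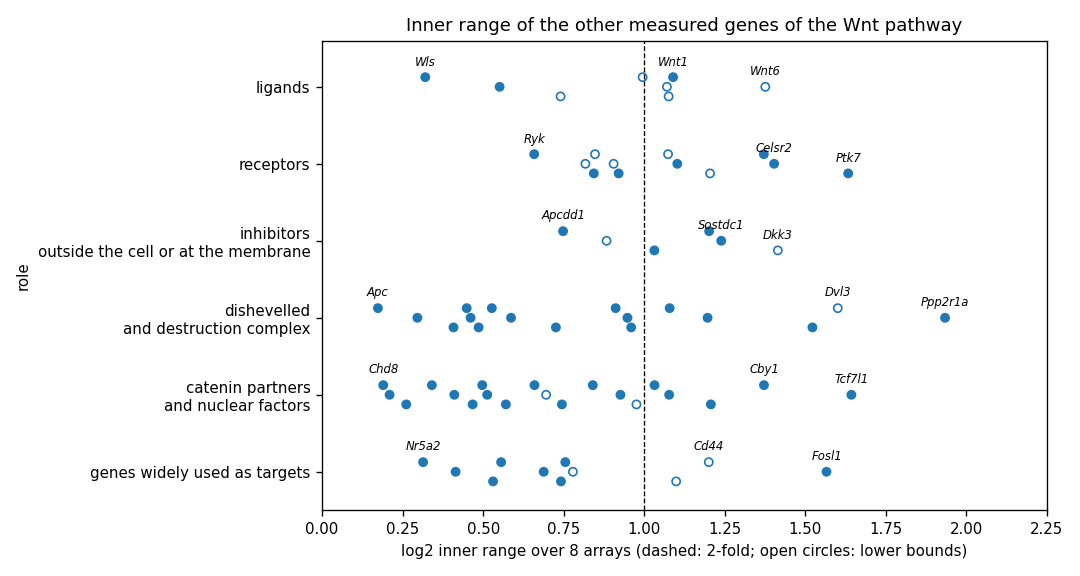
Log2 inner range over the 8 arrays of the 74 measured genes of the wider Wnt pathway list, by role. Open circles are lower bounds, the dashed line is 2-fold, and the named genes are those with the largest 2 and the smallest range in each role, from 1.13-fold in Apc to 3.82-fold in Ppp2r1a.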

How the data were processed

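Total RNA of granulosa cells was labelled with biotin and hybridised to 8 Affymetrix arrays, per the labels' protocols. The authors deposited linear signal intensity. The submitters' processing notes name MAS5, and no version of it is stated in the sources used here. Every array had the same mean of 1501 once 2% of values were trimmed from either end. MAS5 treats each array alone and is noisy at low signal, and detection calls were not used here.

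With Python 3.11.15, pandas 2.3.3 and numpy 2.4.6, deposited intensities were converted to log2 values. Arrays were then aligned on the median of the 10091 probe sets that exceeded the array's own median everywhere, a step of at most 0.08. Of the 31099 probe sets, 57 were controls, 20832 had 1 gene symbol (6 of them controls), 436 had several and 9831 were not listed. Symbols were looked up in a gene table of GRCr8, which held 20764 of them and changed 0. A gene was represented by its brightest probe set after the floor. Log2 inner ranges, turned into folds, describe spread, and no test was run. The functions were tested on simulated data.

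The members and lists were chosen with earlier results of these data known. Named are the 10 genes, the widest 2 and the steadiest gene of each role, the 3 nearest genes of each wide member, and markers. No batch is given in the labels. The number of arrays limits the precision. Alternatives were scaling, floor, filter, probe set rule, full range and arrays left out.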

Additional observations from a re-analysis of the deposited data

Results flagged for a closer look

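In 2 of the 18 Wnt probe sets that exceeded the floor somewhere, 1 array lay far from the other 7, judged by its gap to the nearest array over the whole range (Dixon's ratio). Chance alone marks about 1 in 20 such sets of values, and 5.97% of all measured genes were marked. The second Fzd4 probe set gave 747 on array 2195 against 410.2 or less elsewhere, and the second Tcf7l2 probe set gave 890.5 there against 488 or less. The floor was also highest on array 2195, and its part in these values was not tested. Of the 27 named genes, 3 were marked, each of them outside the 10. Apc was lowest on array 2074, at 3391, with 4821 or more on the others. Cd44 was highest on array 2194, at 2362, with 690.1 next. Nr5a2 was lowest on array 2194, at 29576, with 38989 next.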

How the results depend on the processing

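The count of Wnt genes that reached 2-fold, 4 of 9, was 3 without scaling and with the mean of probe sets, 4 with a lower floor, no floor or no filter, 2 with quantile normalization (Wnt4 and Sfrp4), and 2 over arrays 2194 to 2199 alone (Sfrp4 and Axin2). It was 0 when a gene had to exceed the median on all 8 arrays, which left 3 genes to count, and 8 with the full range, which is wider by construction. The share of all measured genes moved too, from 29.7% to 19.3% with that stricter filter, 21.5% with the mean of probe sets, 27.8% with quantile normalization, 39.4% with the lower floor, 71.3% with the full range and 12.0% over arrays 2194 to 2199. Leaving out 1 array gave 1 to 4, the lowest without array 2195 (Wnt4 alone), and 2 without array 2074 or 2194. In all these counts a gene whose lower bound fell short of 2-fold was taken as not reaching it. For the wider list the count of 27 became 13 with the stricter filter (49 genes measured), 16 with the mean of probe sets, 57 with the full range and 9 of 69 over the 6 arrays from 2194 on, beside those same shares. Dropping any 1 array gave 18 to 26, with 18.7% to 25.2% of all measured genes. Inner ranges of the 9 genes moved by more than 1 SD of the gene's log2 signals in 13 cases and by less in 129. Settings under which a gene no longer counted as measured, such as Fzd4 with a lower floor, are not in this tally. A move of less than 1 SD could still cross 2-fold, as for Fzd1 without scaling (1.90-fold). With the mean of probe sets Sfrp4 (1.76-fold), Tcf7l1 (1.97-fold), Wnt6 (1.63-fold), Cby1 (1.59-fold), Cd44 (1.56-fold) and Dkk3 (1.26-fold) no longer reached 2-fold. Values raised to the floor enter these means, so these folds can be too low. With a floor at the 25th percentile Axin2 had at least 4.58-fold, Cd44 at least 4.69-fold and Dvl3 at least 6.09-fold. Without a floor these 3 genes had 13.9, 14.4 and 7.53-fold. Wnt6 had 4.59-fold in both settings, though values below background have no order. Sfrp1 rose to 1.91-fold with quantile normalization. The cause of these shifts was not tested. No paired analysis was possible because the labels put no array in a group. Low signal limits Wnt5a, Fzd4, Sfrp1, Sfrp4 and Axin2.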
